A study of Mus musculus with 13 samples.

Results

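Leukocyte adhesion molecules and sialomucins of the endothelial surface were followed by symbol as 9 genes, namely the selectins Sele and Selp, the immunoglobulin-type molecules Icam1, Icam2 and Vcam1, the hyaluronan receptor Cd44, and the sialomucins Cd34, Emcn and Podxl. All 9 were listed among the 24984 genes counted in tumor endothelial cells (ECs) and among the 24421 genes counted in sprout ECs. Tumor ECs were sorted as CD31+/CD105+ cells, after gating out CD45+ leukocytes, from orthotopic tumors of E0771, a mouse mammary carcinoma line, in C57BL/6J mice (C57BL6/J in the sample labels), with 100 cells per Smart-Seq2 library. Libraries called Apelin-depleted came from shApln tumors grown in Apln-/- mice (n = 3), and those called wild type from shRenilla tumors grown in Apln+/+ mice (n = 6). Sprout ECs were CD31+ cells sorted from embryoid bodies of haploid-derived mouse embryonic stem cells on a C57BL/6x129 background that carry a gene trap in the first intron of Apln, placed in collagen I on day 8 under 30 ng/ml VEGFA164. The sense trap (Apln STOP) was combined with DMSO (n = 2 libraries), and its Cre-reverted antisense sister (Apln GO) was combined with 1000 nM Apelin Pyr13 (n = 2). The names STOP and GO and the treatment of each come from the study's legends, since the sample labels give sense or antisense only and name both the peptide and DMSO for all 4 libraries without saying which received which. Genotype and added peptide therefore changed together in sprouts, as tumor cell and host Apelin did in tumors, and the effects of the 2 cannot be told apart.

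Selectins on activated endothelium catch flowing leukocytes and let them roll, after which Icam1, Icam2 and Vcam1 bind leukocyte integrins and hold the cells firmly. Endothelial sialomucins carry many negatively charged sialic acids, which space the luminal surface and hinder contact, and, when decorated with sulfated sialyl Lewis x sugars, the same proteins can serve as selectin ligands. Selp is stored in Weibel-Palade bodies and Sele is made after cytokine exposure. In tumor vessels this group of molecules governs where immune cells enter the tissue.

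Apln, the targeted gene, was measured at 2.42 to 11.8 CPM (counts scaled to library size) in Apelin-depleted and at 414 to 1011 CPM in wild-type tumor ECs, and it fell (log2 fold change -6.70 ± 0.59, adjusted p = 6.13e-05, edgeR). In sprout ECs Apln stood at 66.5 and 79.9 CPM in the STOP-labelled libraries and at 58.2 and 65.5 CPM in the GO-labelled libraries, so its gene counts did not follow the labels (log2 fold change 0.24 ± 0.16, adjusted p = 0.367). Sprout libraries are therefore called by their labels, and every direction in them is a direction by label. Total counts lay between 4661044 and 14455093 in tumor libraries and between 12327030 and 16804071 in sprout libraries. Several libraries stood apart in markers of other cells. Wild-type library 2 held 4145 CPM summed over 10 mural and fibroblast markers, against 56.4 to 308 CPM in the other tumor libraries. Depleted library 1 and wild-type library 4 held 1273 and 784 CPM of 16 leukocyte markers, against 45.4 to 193 CPM in the others. Sprout libraries held 5403 to 5584 (STOP-labelled) and 2079 to 3472 CPM (GO-labelled) of 8 pluripotency markers, and 672 to 900 against 2511 to 2633 CPM of 12 endothelial markers, none of which was at 0 in any group. In these bulk libraries, fewer cells of a type and less RNA per cell cannot be told apart.

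Upstream sequences were found for 6 of the 9 genes in the RefSeq table of GRCm38.p6, as 250 bases before to 50 bases after the start site. Those of the sialomucins Cd34 and Emcn are shown because both genes were lower in STOP-labelled sprouts, and those of the selectins Sele and Selp because these genes varied together across tumor ECs. Capitals mark matches, on either strand, to the ETS core GGAAG (read as CTTCC on the other strand), the AP-1 word TGANTCA, the kB-like word GGANNTTCC and the TATA box TATAAA. Each sequence runs 5′ to 3′ on the strand of its gene, at chr1:194938571-194938870 (plus strand) for Cd34, chr3:137340828-137341127 (plus) for Emcn, chr1:164047984-164048283 (plus) for Sele and chr1:164115014-164115313 (plus) for Selp.
Cd34: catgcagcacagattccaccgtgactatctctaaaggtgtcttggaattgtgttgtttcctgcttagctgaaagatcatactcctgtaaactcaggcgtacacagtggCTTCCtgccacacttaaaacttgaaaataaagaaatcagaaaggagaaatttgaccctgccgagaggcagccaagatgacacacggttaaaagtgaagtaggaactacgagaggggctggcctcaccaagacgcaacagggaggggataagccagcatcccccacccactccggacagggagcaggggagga
Emcn: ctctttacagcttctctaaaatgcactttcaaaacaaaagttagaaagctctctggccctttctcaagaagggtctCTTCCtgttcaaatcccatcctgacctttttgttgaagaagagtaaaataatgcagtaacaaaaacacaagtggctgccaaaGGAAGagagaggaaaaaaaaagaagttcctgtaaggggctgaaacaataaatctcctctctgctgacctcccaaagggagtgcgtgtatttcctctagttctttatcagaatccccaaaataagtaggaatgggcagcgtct
Sele: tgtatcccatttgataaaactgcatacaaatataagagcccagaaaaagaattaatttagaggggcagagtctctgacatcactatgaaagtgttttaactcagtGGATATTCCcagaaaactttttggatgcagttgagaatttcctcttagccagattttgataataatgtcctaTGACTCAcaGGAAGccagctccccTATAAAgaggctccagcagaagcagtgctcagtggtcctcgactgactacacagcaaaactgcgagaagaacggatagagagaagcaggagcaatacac
Selp: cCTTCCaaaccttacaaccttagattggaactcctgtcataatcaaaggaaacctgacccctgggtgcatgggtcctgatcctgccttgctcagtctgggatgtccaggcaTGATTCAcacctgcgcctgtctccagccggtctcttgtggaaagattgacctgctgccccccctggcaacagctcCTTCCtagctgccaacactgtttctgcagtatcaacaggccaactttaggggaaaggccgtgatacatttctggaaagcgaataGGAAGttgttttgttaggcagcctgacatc

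Over all 32851 windows of this length, the ETS core occurred in 71.4%, the AP-1 word in 7.81%, the kB-like word in 4.26% and the TATA box in 13.6%. Cd34 held 1 ETS core and Emcn held 2, and neither held the other 3 words. Sele held the kB-like word 145 bases before the start site as GGATATTCC, the AP-1 word 73 bases before it, 1 ETS core and the TATA box, whereas Selp held the AP-1 word 139 bases before its start site and 3 ETS cores. Icam1, whose window is not shown, held the kB-like word 153 bases before its start site as GGAAATTCC, with 1 ETS core and the word TATAAA. This TATAAA of Icam1 began after the start site used, at base 14, whereas that of Sele began 49 bases before its start site. Cd44 held 4 ETS cores only. The longer kB consensus, present in 8.46% of windows, was in none of the 6. The kB-like word was chosen after these sequences had been read, and a match describes the letters only. In GRCm38 the genes lie at chr1:164039614-164058487 (Sele), chr1:164115264-164150026 (Selp), chr9:21015940-21028814 (Icam1), chr11:106377656-106388139 (Icam2), chr3:116110020-116129688 (Vcam1), chr2:102811141-102901669 (Cd44), chr1:194938821-194961292 (Cd34), chr3:137341062-137431069 (Emcn) and chr6:31519493-31563937 (Podxl). Sele and Selp are thus neighbours. The start site used for the Sele window lies inside this Sele interval and not at its edge.

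In tumor ECs, all 9 genes had enough counts for the test, and none passed the thresholds (adjusted p of 0.05 and absolute log2 fold change of 1). With edgeR 0 of 9 were lower, beside 0.00765% of the 13073 genes tested, and 0 were higher, beside 0%, and DESeq2 also called 0. At an unadjusted p under 0.05, edgeR had 4 of 9 higher in Apelin-depleted ECs (Sele, Selp, Icam1 and Podxl), beside 1.87% of all genes, and DESeq2 had 3. Counted in either direction, members at an unadjusted p under 0.05 in edgeR were 2 without depleted library 2 or without wild-type library 6. They were 3 or 4 without any other library, and 2 with the replicate number as a block. The genes behind these counts can differ between fits. Of the 9 estimates, 8 were above and 1 was below 0, with a median of 0.58 against -0.03 over all genes. Endothelial markers lay the same way, with 11 of 12 above 0 (median 0.36, 0 called by edgeR or DESeq2, 1 at an unadjusted p under 0.05) and sums of 10595 to 13862 CPM in depleted against 8072 to 11759 CPM in wild-type libraries. With libraries scaled to these 12 markers, an alternative chosen after seeing the data that moved the median over all genes to -0.40, Sele was at 1.06, Selp at 0.77, Icam1 at 0.38 and Podxl at 0.83. Podxl alone of the 9 then kept an unadjusted p under 0.05, beside 0.574% of all genes.

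**Figure D1:**
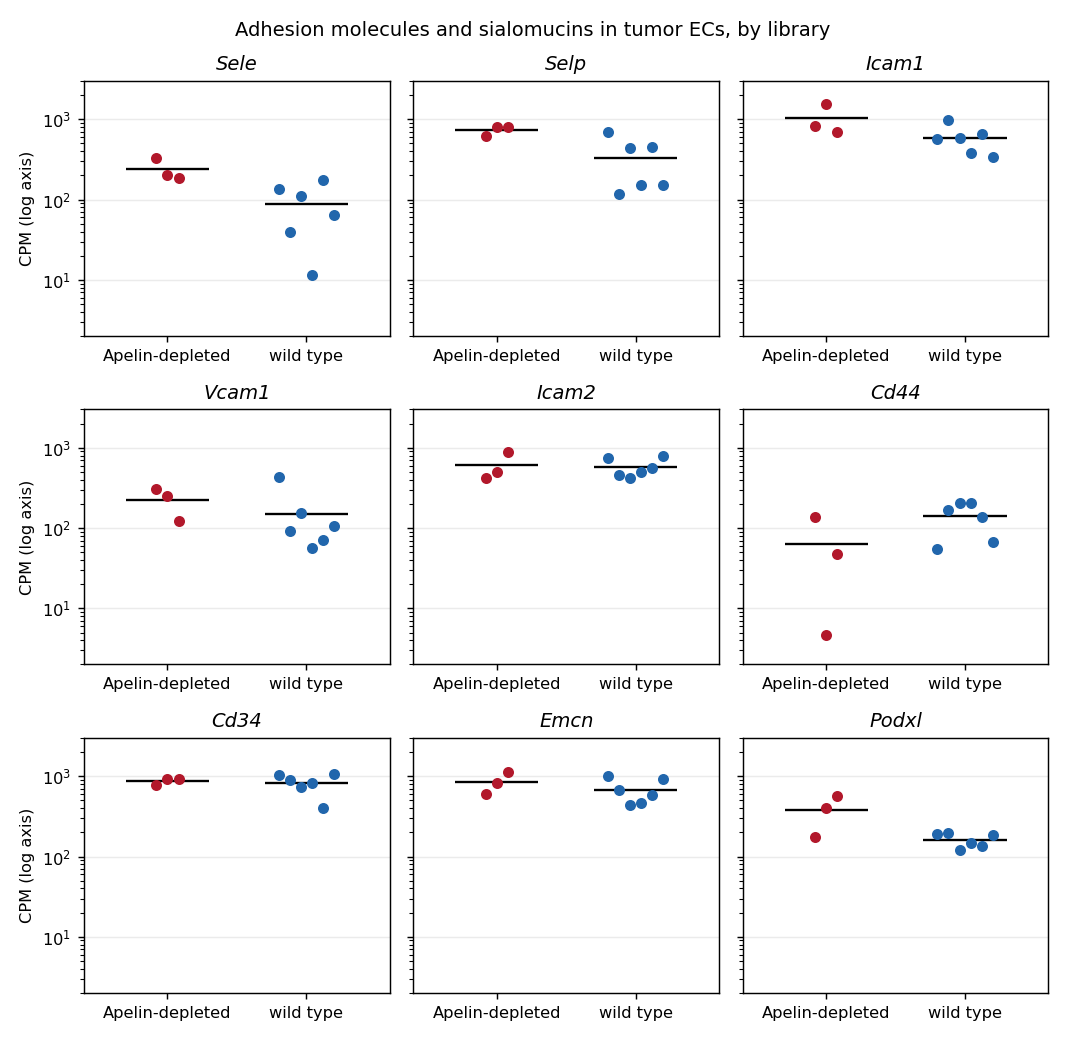
Level of each gene in CPM (log axis) in the 3 Apelin-depleted and 6 wild-type libraries of tumor ECs, with points for libraries and bars for group means. The groups do not overlap for Sele, whose depleted libraries lie between 184 and 331 CPM above a wild-type maximum of 175 CPM, and the lowest point is Cd44 in depleted library 2 at 4.61 CPM.

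Sele (E-selectin) was the single gene of the group whose tumor libraries did not overlap. It was measured at 331, 203 and 184 CPM in the Apelin-depleted libraries. In wild-type libraries the lowest value was 11.4, the median 87.0 and the highest 175 CPM. All depleted libraries were above all wild-type libraries, a separation found in 1.13% of genes, but the gap to the highest wild-type library was small and the wild-type values spread 15.4-fold. Set against the endothelial marker sum of the same library, Sele came to 3.12, 1.47 and 1.37 per 100 CPM in depleted libraries and up to 2.17 in wild-type libraries, so on that scale the groups overlapped. The estimate in CPM was 1.43 ± 0.58 on the log2 scale (adjusted p = 0.981, edgeR).

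Selp (P-selectin), the stored selectin of endothelium and platelets, was measured at 617, 797 and 802 CPM in the depleted libraries. Wild-type libraries ran from 117 over a median of 293 to 694 CPM. The depleted libraries were close to each other, while wild-type library 1 reached into their range and the groups overlapped. The estimate was 1.15 ± 0.47 (adjusted p = 0.981, edgeR). Of the platelet and megakaryocyte markers, Ppbp, Gp6 and Treml1 were at 0 in all depleted libraries, and Gp6 was also at 0 in all wild-type libraries. The 8 markers summed to 4.54 to 42.3 CPM in depleted and 4.65 to 99.5 CPM in wild-type libraries.

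Icam1, the cytokine-inducible ligand of leukocyte beta-2 integrins, was measured at 824, 1550 and 698 CPM in the depleted libraries. Wild-type values were 339 at the lowest, 583 at the median and 994 CPM at the highest. Depleted library 2 was the highest of all 9, and the other 2 depleted libraries lay within the wild-type range. The estimate was 0.79 ± 0.34 (adjusted p = 1.00, edgeR), and without depleted library 2 it was 0.38.

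Vcam1, the ligand of the integrin alpha-4 beta-1 on lymphocytes and monocytes, was measured at 303, 254 and 122 CPM in the depleted libraries. Wild-type libraries held 57.0, 99.6 and 427 CPM at the lowest, median and highest. Wild-type library 1 alone exceeded every depleted library. The estimate was 0.58 ± 0.55 (adjusted p = 1.00, edgeR), 1.25 without wild-type library 1, 0.88 without depleted library 3 and 0.30 without depleted library 1. The library with most mural and fibroblast RNA, wild-type library 2, held 93.1 CPM of Vcam1. Icam2, which is present on resting endothelium, gave 415, 497 and 898 CPM in the depleted libraries. Its wild-type lowest, median and highest were 423, 524 and 793 CPM, so the groups lay over each other (0.06 ± 0.32).

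Cd44, which binds hyaluronan and is found on leukocytes and stroma as well as on endothelium, was the only gene with an estimate below 0 in tumor ECs. Depleted libraries held 136, 4.61 and 48.1 CPM. Wild-type libraries ran from 54.6 over 154 to 204 CPM. The depleted libraries differed 29.4-fold among themselves, and depleted library 2 rested on 64 counts. The estimate was -1.14 ± 0.80 (adjusted p = 1.00, edgeR), and it was -0.59 without depleted library 2 and -2.42 without depleted library 1. The sort had gated out CD45+ cells. The depleted library with most Cd44 was also the one with 1273 CPM of leukocyte markers, and the one with least Cd44 had 45.7 CPM of them. Of 11 leukocyte markers tested 8 were above 0 (median 1.16), and 2, the neutrophil genes S100a8 and S100a9 (named after their values were seen), were lower at an unadjusted p under 0.05, with 0 called by edgeR and 2 called lower by DESeq2. S100a8 was at 0 in all depleted libraries and at 6.42 ± 4.97 CPM (SD, n = 6) in wild-type ECs. In wild-type ECs the libraries with 203.7 and 203.9 CPM of Cd44 held 106 and 784 CPM of leukocyte markers. Mural and fibroblast markers had group medians of 79.7 CPM (depleted) and 82.3 CPM (wild type), and 8 of the 9 tested were below 0 (median -2.10, 0 called by edgeR, 1 by DESeq2, 1 at an unadjusted p under 0.05). Wild-type library 2, which held 4145 CPM of them, held 170 CPM of Cd44. Depleted library 1 also held 213 CPM of 8 epithelial markers, against 12.1 to 69.2 CPM in the other tumor libraries. The part of any of these cells in the Cd44 values was not tested.

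Among sialomucins, Podxl (podocalyxin), which lines the lumen of vessels and glomerular podocytes, had the smallest p of the 9 in tumor ECs. It was measured at 176, 403 and 567 CPM in depleted libraries. Wild-type values were 120, 165 and 198 CPM at the lowest, median and highest. Depleted libraries 2 and 3 lay above every wild-type library and depleted library 1 lay among them. The estimate was 1.23 ± 0.33 (adjusted p = 0.686, edgeR), with an adjusted p of 0.121 by DESeq2, and leaving out depleted library 1 gave 1.57 (adjusted p = 0.175) while leaving out depleted library 3 gave 0.82.

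Cd34, a marker of endothelium and blood stem cells, gave 788, 916 and 936 CPM in depleted libraries. Wild-type ECs held 398, 867 and 1078 CPM at the lowest, median and highest. The wild-type range enclosed all 3 depleted libraries (0.08 ± 0.30). Emcn (endomucin), typical of capillary and venous endothelium, gave 594, 820 and 1130 CPM in depleted libraries. Its wild-type lowest, median and highest were 439, 628 and 997 CPM, and the groups overlapped (0.31 ± 0.32).

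Levels were ordered per length of the transcript, as CPM per kilobase. In wild-type tumor ECs, Icam2 (507 ± 138, SD, n = 6), Emcn (469 ± 162) and Cd34 (328 ± 97.2) led, followed by Icam1 (232 ± 91.8), Selp (97.0 ± 67.3), Vcam1 (44.5 ± 41.0), Cd44 (31.4 ± 14.8), Sele (30.6 ± 21.2) and Podxl (30.4 ± 6.13). Every neighbouring pair in this order overlapped between libraries. In Apelin-depleted tumor ECs the order began with Emcn (584 ± 186, n = 3), Icam2 (528 ± 226), Icam1 (403 ± 181) and Cd34 (348 ± 31.7). Selp (215 ± 30.6) stood clear of Cd34 above it and of Sele (82.2 ± 27.5) below it. Podxl (71.7 ± 36.8), Vcam1 (66.7 ± 27.6) and Cd44 (14.1 ± 15.0) closed it, and of these only the step from Vcam1 to Cd44 was free of overlap.

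In sprout ECs, the sialomucins Emcn and Cd34 and the adhesion molecule Icam2 were lower in the STOP-labelled libraries and passed the thresholds, whereas Icam1 did not move with them. Sele and Selp were near the floor and were left out by the filter, so 7 of 9 genes were tested. Of the 7, 3 fell, beside 3.03% of the 14557 genes tested, and 0 were higher, beside 0.852%. At an unadjusted p under 0.05, edgeR had 5 lower, beside 14.3% of all genes, and 1 higher, beside 12.4%. DESeq2 called Cd44 as well, giving 4 lower (beside 4.65% of its tested genes) and 0 higher. The median estimate of the 7 was -1.54 against 0.01 over all genes. In 5 of the 7 every STOP-labelled library lay below every GO-labelled library, beside 29% of all genes. With 2 libraries against 2 such a separation is easily reached. The sample labels do not say whether the libraries of a group came from separate cultures, so these p-values measure the spread between libraries, which may be technical.

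**Figure D2:**
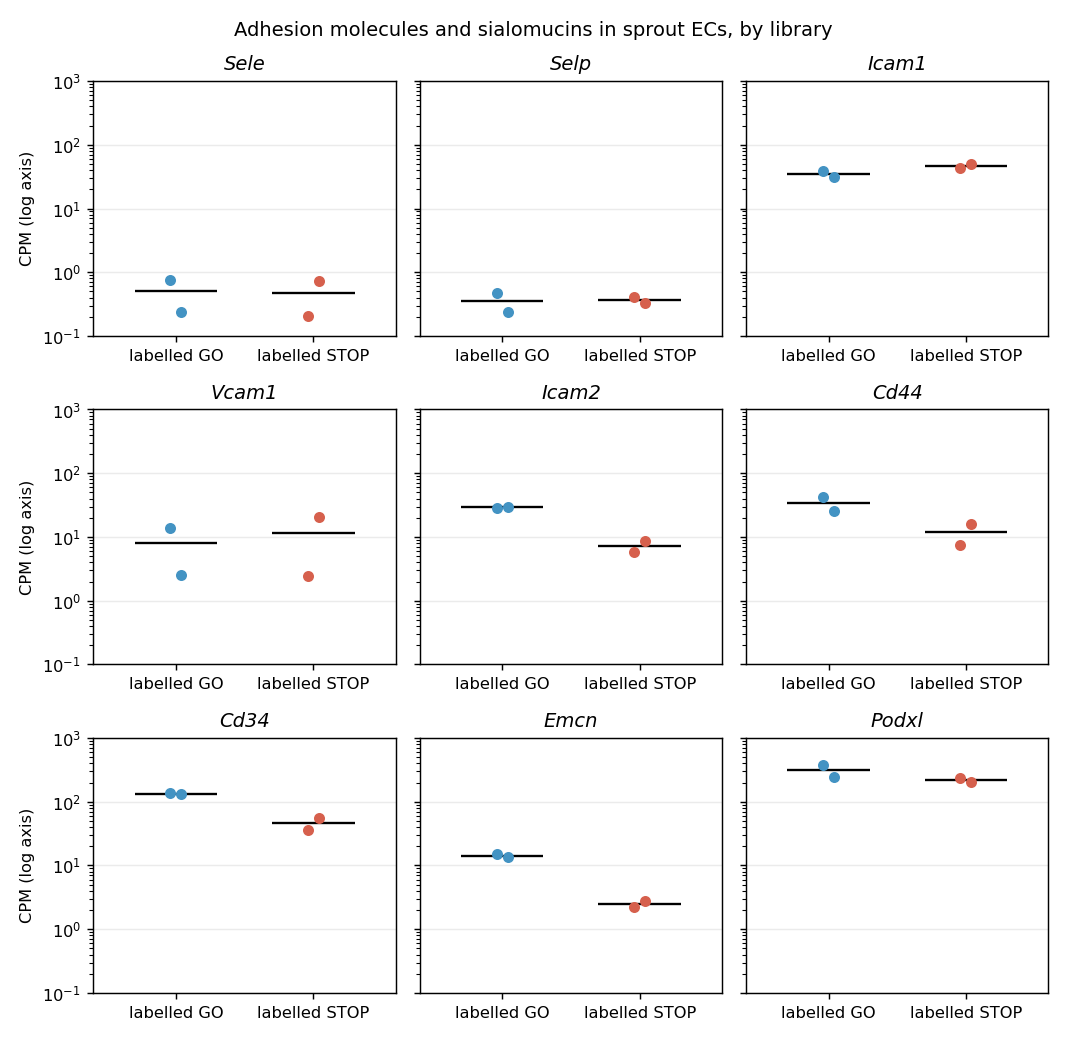
Level of each gene in CPM (log axis) in the 2 GO-labelled and 2 STOP-labelled libraries of sprout ECs, with points for libraries and bars for group means. Emcn, Icam2 and Cd34 show a step between labels that exceeds the distance within each pair, Vcam1 shows wide pairs with no step, and Sele and Selp lie below 1 CPM.

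Emcn was measured at 2.25 and 2.76 CPM in the STOP-labelled and at 14.9 and 13.4 CPM in the GO-labelled libraries. This was the largest fold among the 7, at 5.67-fold, with replicates much closer to each other than the groups were. It fell by 2.5 ± 0.29 on the log2 scale (adjusted p = 0.00621, edgeR). Icam2 was measured at 5.86 and 8.69 CPM against 29.0 and 30.1 CPM. The libraries of the 2 labels were again far apart. Icam2 fell by 2.03 ± 0.25 (adjusted p = 0.00701, edgeR).

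Cd34 was measured at 36.0 and 55.1 CPM in the STOP-labelled and at 136 and 132 CPM in the GO-labelled libraries. The GO-labelled libraries were nearly equal, and both STOP-labelled ones were lower. Cd34 fell by 1.56 ± 0.21 (adjusted p = 0.0119, edgeR). Leaving out a sprout library leaves 1 library in its group, which is then assumed to vary like the other group. Under that assumption the Cd34 estimate without GO-labelled library 1 was -1.55 with an adjusted p of 0.0785, and Emcn and Icam2 stayed past the thresholds without any 1 of the 4 libraries. Blood progenitors also carry Cd34, and 9 of their markers summed to 187 and 162 CPM in the STOP-labelled and 350 and 471 CPM in the GO-labelled libraries, none at 0. Of 8 tested, Tal1 (-2.52) and Runx1 (-1.68) fell, and their part in the Cd34 values was not tested. Podxl, which pluripotent cells and visceral endoderm carry as well, was measured at 233 and 207 CPM against 379 and 248 CPM. The highest STOP-labelled and lowest GO-labelled libraries were close, and the estimate of -0.52 ± 0.21 did not pass (adjusted p = 0.169, edgeR). Visceral endoderm markers summed to 30.1 and 55.5 CPM in the STOP-labelled and 125 and 93.5 CPM in the GO-labelled libraries, none of the 8 at 0, with 2 of 7 tested called lower, and their part in Podxl was not tested. Without GO-labelled library 1 the Podxl estimate was -0.19, and without GO-labelled library 2 it was -0.78.

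Cd44 was measured at 7.42 and 16.2 CPM in the STOP-labelled and at 42.7 and 25.6 CPM in the GO-labelled libraries. The groups did not overlap, although each pair spread widely. The estimate was -1.54 ± 0.45 with an adjusted p of 0.116 in edgeR and 0.00275 in DESeq2. Without STOP-labelled library 2 it was -2.23 and passed in edgeR (adjusted p = 0.0241, with the spread taken from the GO-labelled pair), and without STOP-labelled library 1 it was -1.06. Within each label, the library with more Cd44 was also the one with the larger mural and fibroblast sum given with Vcam1, and the part of those cells was not tested.

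Icam1 was measured at 43.7 and 50.3 CPM in the STOP-labelled and at 38.6 and 31.7 CPM in the GO-labelled libraries. It was the single member whose STOP-labelled libraries were both higher, and the share of all genes separated this way was not counted. The step was small (0.41 ± 0.17, adjusted p = 0.169, edgeR). Vcam1 was measured at 2.45 and 20.3 CPM against 13.7 and 2.56 CPM. Each label had a high and a low library, so the estimate of 0.46 ± 1.5 carried no direction (adjusted p = 0.879), and it was -1.77 without STOP-labelled library 2, -0.27 without GO-labelled library 2 and 2.13 without GO-labelled library 1. The 10 mural and fibroblast markers summed to 425 and 2241 CPM in the STOP-labelled and to 2560 and 560 CPM in the GO-labelled libraries, with none of the 10 at 0. The 2 libraries with high Vcam1 were therefore the 2 with high mural and fibroblast sums, and the part of those cells in Vcam1 was not tested. Sele had 3 and 9 counts against 13 and 3, and Selp had 6 and 4 counts against 8 and 3. These lie between the floor of 3 counts (0.177 to 0.244 CPM) and 13 counts, and no difference of the selectins was detectable at this depth, where counting error alone is considered.

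**Figure D3:**
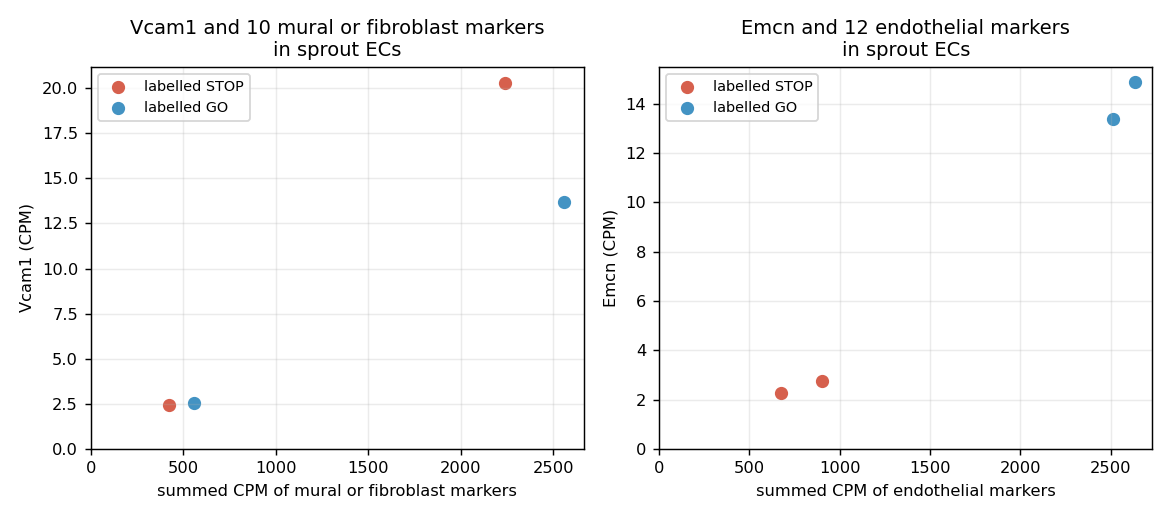
Left, Vcam1 (CPM) against the summed CPM of 10 mural and fibroblast markers, and right, Emcn (CPM) against the summed CPM of 12 endothelial markers, with 1 point for each sprout library. Vcam1 is at 13.7 and 20.3 CPM in the 2 libraries with 2560 and 2241 CPM of mural markers, and Emcn is at 13.4 and 14.9 CPM in the 2 libraries with 2511 and 2633 CPM of endothelial markers.

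The fall of Emcn, Icam2 and Cd34 ran beside a fall of the endothelial markers as a whole. Of 12 markers, 11 fell and all 12 estimates were below 0, with a median of -1.91. The sort marker Pecam1 was at 154 ± 20.7 CPM (SD, n = 2) in the STOP-labelled and 268 ± 4.71 CPM in the GO-labelled libraries (-0.80 ± 0.15, adjusted p = 0.0244, edgeR), and Eng fell by 1.06 ± 0.13 (adjusted p = 0.00746). Among the 12, Tie1 fell by 2.26, Erg by 2.35, Tek by 1.84 and Kdr by 1.95. All 8 pluripotency markers were higher in STOP-labelled libraries, and 1 of them, Dppa5a, passed the thresholds (1.28 ± 0.22, adjusted p = 0.0227).

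Levels were therefore also set against the summed endothelial markers of the same library. Cd34 came to 5.35 and 6.12 per 100 CPM of endothelial markers in the STOP-labelled and to 5.16 and 5.26 in the GO-labelled libraries. Icam2 came to 0.872 and 0.966 against 1.10 and 1.197, and Emcn came to 0.334 and 0.307 against 0.565 and 0.533. Cd34 was thus close between labels, whereas Emcn and, by less, Icam2 were still lower in both STOP-labelled libraries. Icam1 came to 6.51 and 5.59 against 1.47 and 1.26, and Podxl to 34.7 and 23.0 against 14.4 and 9.88. With library sizes replaced by the endothelial marker counts, an alternative chosen after seeing the data, edgeR no longer called Emcn (-0.78, adjusted p = 0.111), Icam2 (-0.32, adjusted p = 0.412) or Cd34 (0.14, adjusted p = 0.674). Icam1 (2.15) and Podxl (1.25) then passed as higher, but so did 85.3% of all genes, since this scaling moved the median over all genes to 1.75. Relative to that median Icam1 was above it and Podxl, Cd34, Icam2 and Emcn were below it. This scaling cannot tell endothelial content from the transcript levels of those 12 markers. The part of such content in the 3 calls was not tested.

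Levels per length in the sprouts were taken from the deposited TPM, which RSEM scales by transcript length. In GO-labelled sprouts, Podxl (92.4 ± 33.6, SD, n = 2) and Cd34 (83.5 ± 8.17) led and overlapped. Icam2 (41.1 ± 2.06), Icam1 (20.5 ± 4.45), Emcn (15.4 ± 2.45), Cd44 (11.7 ± 5.22) and Vcam1 (3.89 ± 3.81) followed, and of these neighbours only Emcn and Cd44 overlapped. In STOP-labelled sprouts, Podxl (57.1 ± 5.11) led alone, then Icam1 (25.1 ± 1.65) and Cd34 (24.8 ± 7.04), which overlapped. Icam2 (8.92 ± 2.06), Vcam1 (4.50 ± 4.94), Cd44 (3.51 ± 1.76) and Emcn (2.45 ± 0.28) came after, each overlapping the next. Sele and Selp were at or below 0.40 TPM in every sprout library. Podxl, which headed the order in sprouts of both labels, was last in wild-type tumor ECs, but the 2 sets differ in protocol and counting and these levels were not tested against each other.

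The effects in the 2 settings were compared in a single limma fit over all 13 libraries. The tumor effect was above the sprout effect for Emcn by 2.81 ± 0.56 (adjusted p = 0.0190), for Icam2 by 2.05 ± 0.44 (adjusted p = 0.0269) and for Cd34 by 1.70 ± 0.34 (adjusted p = 0.0193). Sele and Selp passed the count filter of this fit only through the tumor libraries, so no difference is given for them. Of the 7 genes tested in both sets, 3 passed, beside 1.15% of the 11737 such genes (0.876% of all 15762 fitted), and 4 had an unadjusted p under 0.05, beside 8.39% (6.99% of all fitted). Podxl, with 1.596 ± 0.43, had an adjusted p of 0.0885. For Icam1, Vcam1 and Cd44 the difference did not pass, at 0.37 ± 0.39, 0.78 ± 1.28 and -0.97 ± 1.07. With edgeR over the same libraries the differences were 2.76 (Emcn), 2.04 (Icam2) and 1.596 (Cd34), with adjusted p of 0.106, 0.234 and 0.458. There 0 of the 7 passed, beside 0% of the genes tested in both sets, and 4 had an unadjusted p under 0.05, beside 3.57%. In the limma fit the count fell to 0 without STOP-labelled library 1 and to 1 without STOP-labelled library 2, GO-labelled library 1 or depleted library 3, and it was 2 without depleted library 2, while the differences stayed at 2.59 to 3.02 (Emcn), 1.73 to 2.297 (Icam2) and 1.40 to 1.98 (Cd34) over the 13 libraries left out in turn. Of the sort markers, Pecam1, on which both sets were sorted, differed by 0.89 ± 0.25 and did not pass (adjusted p = 0.0978), and Eng, on which tumor ECs alone were sorted, differed by 1.58 ± 0.27 (adjusted p = 0.00523).

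**Figure D4:**
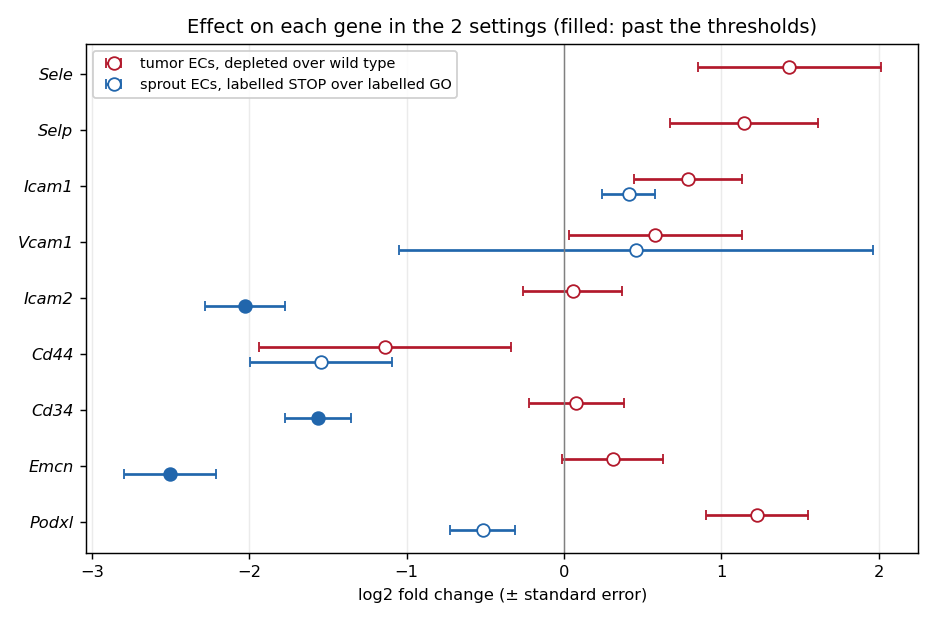
Log2 fold change with its standard error for each gene in tumor ECs (Apelin-depleted over wild type) and in sprout ECs (labelled STOP over labelled GO), with filled points for genes past the thresholds. Emcn, Icam2 and Cd34 are filled at -2.5, -2.03 and -1.56 in sprouts and lie at 0.31, 0.06 and 0.08 in tumor ECs, and Sele and Selp have no sprout point.

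Genes around the adhesion step were examined in lists of transmigration, selectin ligand glycosylation, cytoskeletal linkers of the cell membrane, other sialomucins, cytokine targets, cytokine receptors and leukocyte counter-receptors. The shares over all genes to set beside them are those given above, in sprouts 3.03% called lower and 14.3% lower at an unadjusted p under 0.05, and in tumor ECs 1.87% higher at an unadjusted p under 0.05. In sprouts, 5 of 21 transmigration genes tested fell and 0 rose (median -0.56), among them Plvap, the diaphragm protein of fenestrae (-1.91), Esam (-1.97) and Cdh5 (-1.98), junction proteins of which both are also endothelial markers, and Mcam (-1.57). Of 18 glycosylation genes 2 fell (median -0.48), St3gal1, a sialyltransferase (-1.78), and Chst1, a sulfotransferase (-1.37). Of 16 linkers 3 fell (median -0.19), namely Msn (-1.04), which ties Icam1, Cd44 and Podxl to actin, Rhog (-1.06) and Slc9a3r2 (-1.21), a scaffold of podocalyxin. Of 10 other sialomucins 3 fell (median -0.48), namely Cd24a (-1.33), Cd93 (-1.96) and Mcam, an immunoglobulin-type adhesion molecule that is also counted above among the transmigration genes. No gene of these 4 lists rose, and with DESeq2 4 glycosylation genes and the same numbers as edgeR of the others fell.

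Of 19 cytokine targets in sprouts, 0 passed both thresholds in edgeR, with 8 lower and 2 higher at an unadjusted p under 0.05 (median -0.82), and DESeq2 called 1 lower. Nfkb2 (-0.86 ± 0.17) and Sod2 (0.66 ± 0.16) had the lowest p. Of 12 cytokine receptors, 1 fell, Ltbr (-1.37 ± 0.28, adjusted p = 0.0394), and DESeq2 called 4. Of 7 leukocyte counter-receptors 0 passed, with 1 lower at an unadjusted p under 0.05, and DESeq2 called 1. Itga4 had the lowest p (-1.67 ± 0.51).

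In tumor ECs, edgeR and DESeq2 called 0 genes of these 7 lists. Cytokine targets were above 0 in 19 of 22, with a median of 0.48 and 6 higher at an unadjusted p under 0.05, the sole list of the 7 with any. Il6, a cytokine of activated endothelium, was at 110 ± 12.1 CPM (SD, n = 3) in depleted and at 42.6 ± 18.1 CPM (n = 6) in wild-type ECs (1.37 ± 0.36, adjusted p = 0.686, edgeR). Csf3, the granulocyte growth factor, was at 187 ± 91.1 against 23.3 ± 23.3 CPM (3.00 ± 1.05, adjusted p = 0.957, edgeR). Counter-receptors had a median of 1.52 over 9 tested genes with 0 at an unadjusted p under 0.05, and their sum was 169.5 CPM in depleted library 1, the library with most leukocyte markers. The median over transmigration genes was 0.04, over glycosylation genes -0.03, over linkers 0.09, over other sialomucins 0.64 and over cytokine receptors 0.22. The lowest p among them were those of Cd99l2 (-0.93) and Plvap (0.51), C1galt1 (-2.03) and Galnt2 (-0.81), Ctnnd1 (0.51) and Slc9a3r2 (0.50), Cd248 (-3.02) and Prom1 (1.88), and Il6st (0.71) and Il1rap (-0.92).

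Across the 9 tumor libraries, Sele and Selp varied together (Pearson's r of log2(CPM + 1) 0.84), as did Icam2 with Emcn (0.84) and Emcn with Podxl (0.74). Vcam1 was nearest to the selectins (0.67 with Selp and 0.65 with Sele). Cd44 ran against Podxl (-0.73) and Emcn (-0.61). Within the 6 wild-type libraries alone, r was 0.78 for Sele with Selp, 0.88 for Icam2 with Emcn and 0.80 for Emcn with Podxl. Cd44 ran against Icam2 (-0.96, against -0.30 over all 9) and Emcn (-0.95) there. These values describe 9 libraries that share their totals and group differences, out of 36 pairs. The genes most like each member, out of 9267 with a mean of at least 10 CPM, were Ctnnd1 for Selp (r = 0.94), a catenin from the list of linkers, 5430416N02Rik for Sele (0.95), Rbpms for Icam1 (0.92), Gadd45b for Vcam1 (0.91), Zmat3 for Icam2 (0.93), Prrx1 for Cd44 (0.98), Itm2c for Cd34 (0.98), BC028528 for Emcn (0.96) and Oma1 for Podxl (0.93). The next were Tmem238 for Selp, Zc2hc1a for Sele, Ltbp4 for Icam1, Cavin2 for Vcam1, Reep5 for Icam2, Tapbpl for Cd34, Gm14207 for Emcn and Susd6 for Podxl, with r between 0.90 and 0.97.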

How the data were processed

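RNA-Seq of 13 libraries was used, 9 of tumor ECs and 4 of sprout ECs. The authors deposited whole-number counts per gene for both sets. Tumor counts came from featureCounts (Subread 1.6.2), where the processing notes name Bowtie2 2.3.4.1 and the study's methods name STAR, and sprout counts came from STAR 2.5.0a and HTSeq 0.6.1p1, on mm10. For sprouts, the authors also deposited RSEM 1.2.25 expected counts, rounded here as an alternative, and TPM. HTSeq lines of unassigned reads (42.6% to 49.6% not unique and 8.90% to 12.0% without a feature, out of each table's total) were left out. Counts were scaled by TMM and tested with edgeR 4.0.16 (R 4.3.3, filterByExpr minimum count 10, robust quasi-likelihood, Benjamini-Hochberg over all genes), and the difference of effects with limma 3.58.1 (voom, quality weights by set). CPM use TMM library sizes, and tumor CPM per kilobase use RSEM gene lengths. The main edgeR fits of tumor and of sprout ECs and the limma fit were run on simulated data, and the alternatives were not. Members, lists and tests were chosen with earlier results of these data known. Named genes were the 9 members, Apln, the sort markers, up to 4 called genes of lowest p per list or else the 2 of lowest p, and the 2 genes of highest r per member, of which 1 is not reported here. Alternatives were DESeq2 1.42.0 and its size factors, other count filters, no fold threshold, RSEM counts, the replicate block, edgeR for the difference, each library left out and, chosen after seeing the data, crossed blocks and scaling to endothelial markers. The libraries give the floor of 3 counts at 0.216 to 0.580 CPM in tumor and 0.177 to 0.244 CPM in sprout ECs, counting error only.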

Additional observations from a re-analysis of the deposited data

Results flagged for a closer look

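Vcam1 in wild-type tumor library 1 stood far from the other 5 of its group. It was at 427 CPM, with the next library at 153 CPM, and this gap was 0.741 of the range of the group, above Dixon's limit for 6 samples. Chance gives such a gap in about 1 of 20 groups, and 9 genes were examined. The same library was the highest wild-type library for Selp and Emcn, and its sums of leukocyte (102 CPM) and mural markers (66.2 CPM) were not high.

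The effects differed between tumor and sprout ECs for Icam2 (2.05), Cd34 (1.70) and Emcn (2.81 on the log2 scale, tumor minus sprout, limma). In edgeR 0 of them passed. There 4 of the 7 members tested in both sets had a higher tumor effect at an unadjusted p under 0.05, beside 3.57% of such genes.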

How the results depend on the processing

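In tumor ECs, 0 members were called under each of the 16 alternatives. Estimates near 0 changed sign there. Icam2 ran from -0.36 to 0.26 and Cd34 from -0.064 to 0.17 with a library left out, Cd34 was -0.00071 with the replicate block, and Icam2, Cd34 and Emcn were -0.31, -0.25 and -0.044 when scaled to endothelial markers. In sprouts, Vcam1 ran from -1.77 to 2.13 with a library left out, and Cd34, Cd44 and Podxl were 0.14, 0.14 and 1.25 when scaled to endothelial markers. For the difference of effects, Vcam1 ran from -0.81 to 2.19 and Cd44 from -1.87 to 0.94 with a library left out, Cd44 was 0.35 in edgeR, and the count of members called was 0 in edgeR and 0 to 4 with a library left out. The 4 included Podxl, without depleted library 1 (adjusted p = 0.0261) or GO-labelled library 2 (adjusted p = 0.0113). The cause of these changes was not tested.

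Replicate numbers did not pair the libraries (correlations of deviations -0.13 to 0.04 in tumor and -0.45 in sprout ECs). With the number as a replicate block, 0 members were called in sprouts (5 at an unadjusted p under 0.05, adjusted p = 0.0548 for Icam2, Cd34 and Emcn), and 41 genes fell and 3 rose in place of 441 and 124. Leaving out a sprout library, which leaves 1 in its group, gave 136 and 12 (STOP-labelled 1), 548 and 120 (STOP-labelled 2), 135 and 19 (GO-labelled 1) and 546 and 341 (GO-labelled 2). With the numbers crossed, chosen after seeing the data, 4 members were called, and 933 genes fell and 302 rose. Pathway lists held 13 called genes in sprouts with edgeR and 20 with DESeq2. Over all genes DESeq2 called 628 lower and 198 higher in sprouts and 97 lower and 19 higher in tumor ECs, where edgeR called 1 and 0. No filter gave 632 lower and 222 higher in sprouts and 7 lower and 9 higher in tumor ECs. All 36 group levels moved by less than 1 SD on raw totals. Depth limits Sele and Selp in sprouts, at 3 to 13 counts.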
